A study of Mus musculus with 54 samples.

Results

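Described here are CTCF peaks in the H3K4me3 chromatin of mouse male germ cells that were missing from the peak list of a mutant. The 2281 peaks were chosen by 3 overlaps between deposited peak lists. Each is a CTCF peak of wild-type (WT) testis that overlaps no BORIS peak of WT testis, overlaps no CTCF peak of combined mutant (CM) testis, and shares at least 1 bp with an H3K4me3 peak of WT testis. They make up 6.59% of the 34625 WT CTCF peaks and 17.0% of the 13409 CTCF-only peaks that were lost, and they are called lost CTCF-only peaks in H3K4me3 chromatin. WT CTCF, WT BORIS, CM CTCF and WT H3K4me3 values chose them, so those values are given below as a description, with no test.

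CTCF is a zinc finger protein that binds a long DNA motif, blocks loop extrusion by cohesin and marks the borders of chromatin domains. BORIS, encoded by Ctcfl, is its germ cell paralog, has nearly the same zinc fingers and is made in the testis. H3K4me3 is a histone mark of gene starts, which in mammals often lie in stretches rich in unmethylated CpG pairs, and RNA polymerase II (Pol2) collects at the starts of genes in use.

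The study compared WT mice with mice that carried 1 functional Ctcf allele (CTCF HET), no functional Ctcfl (BORIS KO), or both changes together (CM, Ctcf+/- Boris-/-, labelled DKO). All mice were C57BL/6 males of 3 months, and every preparation held germ cell-enriched testis suspensions pooled from 4 mice. CTCF and Pol2 were mapped by ChIP-seq in WT and CM (2 samples each), BORIS in WT (2 samples) and H3K4me3 in both (1 sample each). RNA was sequenced in whole testis, round spermatids and spermatocytes (3 libraries per genotype, except 2 for WT spermatocytes). Whole testis RNA was depleted of ribosomal RNA and read on an Ion Proton. RNA of the purified cells was selected by poly(A) and read on an Illumina instrument, so their levels differ from whole testis in platform too.

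Each antibody and genotype has a single deposited list, so no peak carries a replicate error and the depth behind the peaks is unknown. The lists hold 21525 CTCF peaks in CM, 34347 H3K4me3 peaks in WT against 20432 in CM, and 25192 Pol2 peaks in WT against 28407 in CM. A peak is therefore called lost when it is not listed in CM, whether its signal vanished or fell under the level that the peak caller accepts. CTCF peak heights ran from 100 to 968 in the CM list (median 316) and from 100 to 4391 in the WT list (median 491). How the heights of the lists were scaled is not given. Of all WT CTCF peaks, 43.9% had no CM CTCF peak, and among CTCF-only peaks the share was 78.4% in H3K4me3 chromatin and 43.4% outside it.

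The sequences show the central contrast, between members that hold a CTCF motif and the larger number that do not. The motif was learned from kept CTCF-only peaks outside H3K4me3 chromatin, and its core reads CCANNAGNGGGC on one strand. The 3 tallest members that hold it lie in a coding exon of Cckbr, in a coding exon of Ppp1r13l and at the start of Morc1. Each line gives the summit and the 60 bases on either side of it, on the plus strand of mm9, with the matched 19 bases in capitals. The match is on the plus strand at Morc1 and on the minus strand at the others.
Cckbr, chr7:112582533-112582653: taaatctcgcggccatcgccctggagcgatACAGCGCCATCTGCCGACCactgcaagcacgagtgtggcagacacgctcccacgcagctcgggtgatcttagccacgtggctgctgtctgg
Ppp1r13l, chr7:19955537-19955657: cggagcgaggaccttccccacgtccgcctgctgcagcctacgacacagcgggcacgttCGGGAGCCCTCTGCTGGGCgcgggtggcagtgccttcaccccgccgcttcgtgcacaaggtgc
Morc1, chr16:48431286-48431406: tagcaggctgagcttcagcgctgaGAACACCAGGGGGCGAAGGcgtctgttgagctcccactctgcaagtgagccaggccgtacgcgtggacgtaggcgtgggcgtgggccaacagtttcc

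The next 4 windows lie at the clearest RNA changes in CM whole testis described below, with Ass1 and Grn higher and 4933408J17Rik and Erp29 lower. The Grn window alone among them holds a match, again in capitals on the minus strand. In the other windows, which hold none, capitals mark CG pairs. The windows of Ass1, 4933408J17Rik and Erp29 hold 11, 16 and 9 CG pairs, and their best motif scores were 10.7, 8.5 and 6.5 against a threshold of 13.14 bits.
Ass1, chr2:31325557-31325677: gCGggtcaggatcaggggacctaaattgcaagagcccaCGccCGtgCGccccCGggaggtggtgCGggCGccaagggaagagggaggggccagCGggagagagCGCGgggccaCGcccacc
Grn, chr11:102292401-102292521: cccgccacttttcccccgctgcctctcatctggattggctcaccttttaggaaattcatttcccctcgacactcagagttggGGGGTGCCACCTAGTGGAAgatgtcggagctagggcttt
4933408J17Rik, chr10:93052322-93052442: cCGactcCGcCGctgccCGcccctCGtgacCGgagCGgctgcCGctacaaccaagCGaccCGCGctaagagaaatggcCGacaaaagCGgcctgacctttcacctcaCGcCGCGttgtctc
Erp29, chr5:121902218-121902338: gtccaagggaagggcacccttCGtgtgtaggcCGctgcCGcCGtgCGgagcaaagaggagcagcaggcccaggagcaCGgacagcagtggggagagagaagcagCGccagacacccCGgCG

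At the score used, a CTCF motif was the exception at these peaks. Within 50 bp of the summit it was found in 221 of 2281 members (9.69%, 95% Wilson interval 8.54 to 11.0). It was found in 441 of 628 kept CTCF-only peaks in H3K4me3 chromatin (70.2%, 66.5 to 73.7), which are CTCF-only peaks in the same mark that still have a CM CTCF peak. The share at members minus that at kept peaks was -60.5 percentage points (95% interval -64.2 to -56.6, Fisher's exact test, two-sided, Benjamini-Hochberg adjusted p = 1.05e-197 over 17 comparisons), and members had the lower share on 19 of 19 chromosomes compared. These tests count peaks of 1 list, which share a library, and say nothing of the spread between animals.

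The members' share was also below that of the other lost peaks. It was 37.0% at lost CTCF-only peaks outside H3K4me3 chromatin (4121 of 11128, Fisher's exact test, adjusted p = 6.57e-168). It was 23.4% at lost CTCF/BORIS peaks in H3K4me3 chromatin (203 of 869, adjusted p = 1.35e-21), which carried a BORIS peak in WT. Windows of the same length 500 bp away from the members' summits held a match in 1.05% (upstream) and 1.58% (downstream), so the summits were richer in matches than their own flanks. The window centred on an annotated gene start held one in 1.25% of 86842 starts, and the centre of a WT H3K4me3 peak in 0.943% of 34347. More than 1 match within 100 bp of the summit was found at 5 members (0.219%). By this scan it was rare in every class. The shares were 0.955% at kept CTCF-only peaks and 0.921% at lost CTCF/BORIS peaks in H3K4me3 chromatin, and 0.575% at lost CTCF-only peaks outside it.

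**Figure D1:**
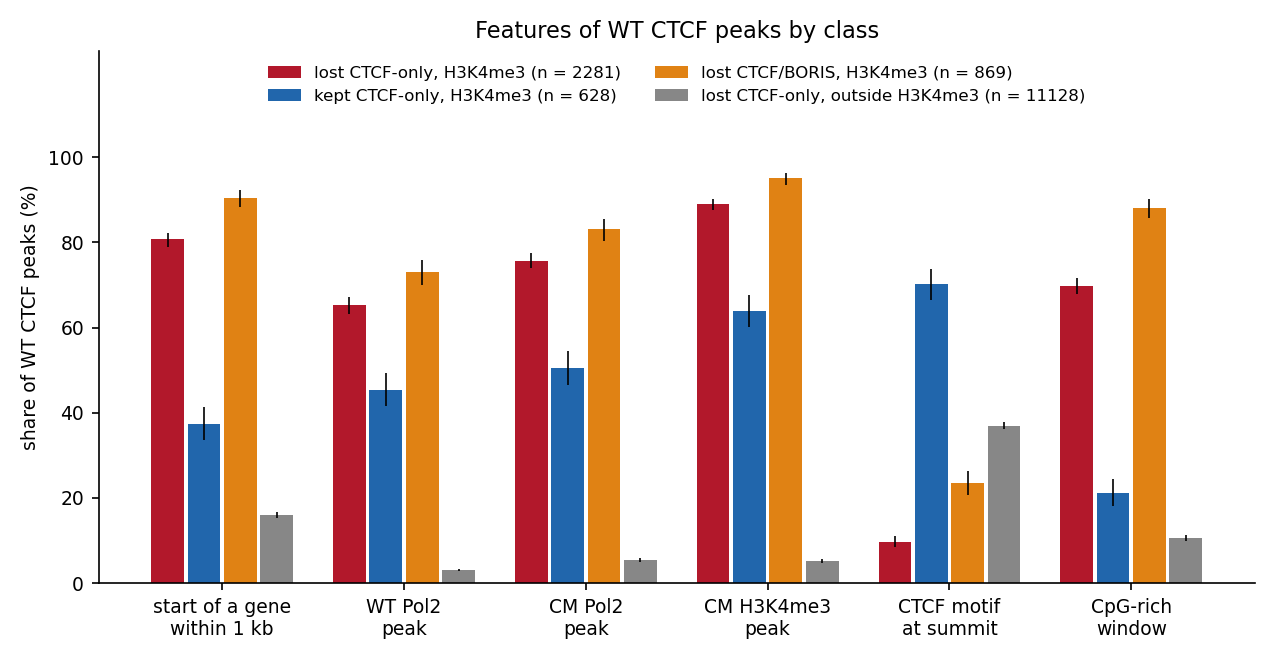
Share of WT CTCF peaks in each of 4 classes (bars, with 95% Wilson intervals) that have a gene start within 1 kb, a WT Pol2, CM Pol2 or CM H3K4me3 peak, a CTCF motif within 50 bp of the summit, or a CpG-rich summit window. Lost CTCF-only peaks in H3K4me3 chromatin stand lowest for the motif (9.69%) and between kept CTCF-only peaks and lost CTCF/BORIS peaks in H3K4me3 chromatin for the other features.

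The members were also low peaks, in values of the list that the rule drew on. Their WT heights had a median of 156 (quartiles 120 and 275, range 100 to 2641) against 1585 at kept CTCF-only peaks in H3K4me3 chromatin, 326 at lost CTCF/BORIS peaks in H3K4me3 chromatin and 167 at lost CTCF-only peaks outside it. The WT list begins at a height of 100, and 1080 members (47.3%) lay under 150. The members' median width was 455 bp (158 to 1957).

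The share with a motif followed height and was lowest in this class at each height. From heights of 100 to 149 up to 500 or more it was 3.98, 10.2, 15.5 and 23.9% of members. At lost CTCF-only peaks outside H3K4me3 chromatin the same steps gave 20.9, 37.8, 54.7 and 64.6%, and at kept CTCF-only peaks in the mark 44.4, 64.0, 65.6 and 71.5%, where the lowest step held 9 peaks. Between members and lost CTCF/BORIS peaks the intervals overlapped at heights under 250. Within 10 classes of height, the difference from kept peaks was -49.4 points (Mantel-Haenszel test). Members with a motif had a median height of 284 and those without one 149.

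**Figure D2:**
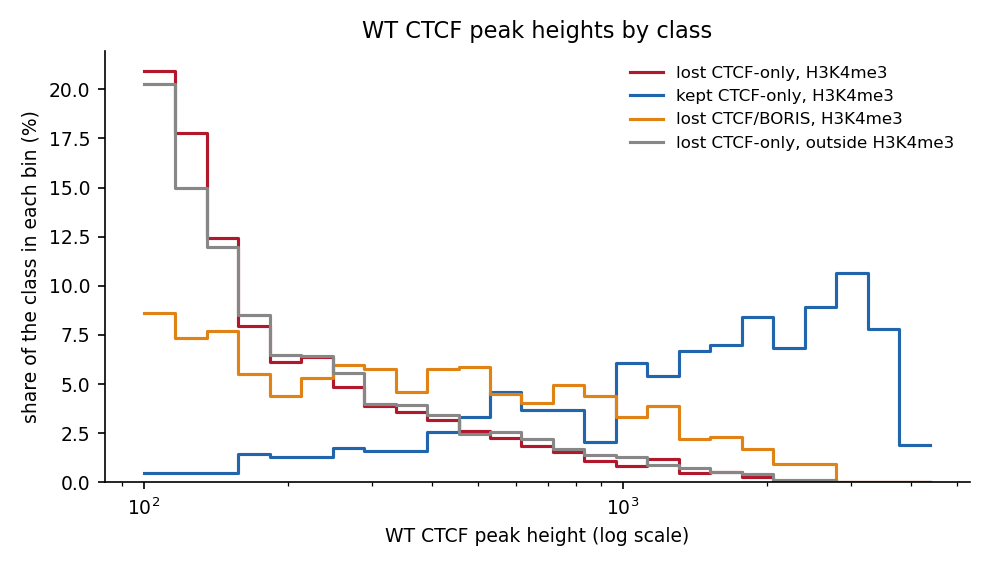
Distribution of WT CTCF peak heights in 4 classes, as the share of each class per height bin on a log axis. Members (median 156) and lost CTCF-only peaks outside H3K4me3 chromatin (median 167) crowd near the list's lower limit of 100, while kept CTCF-only peaks in H3K4me3 chromatin have a median of 1585.

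**Figure D3:**
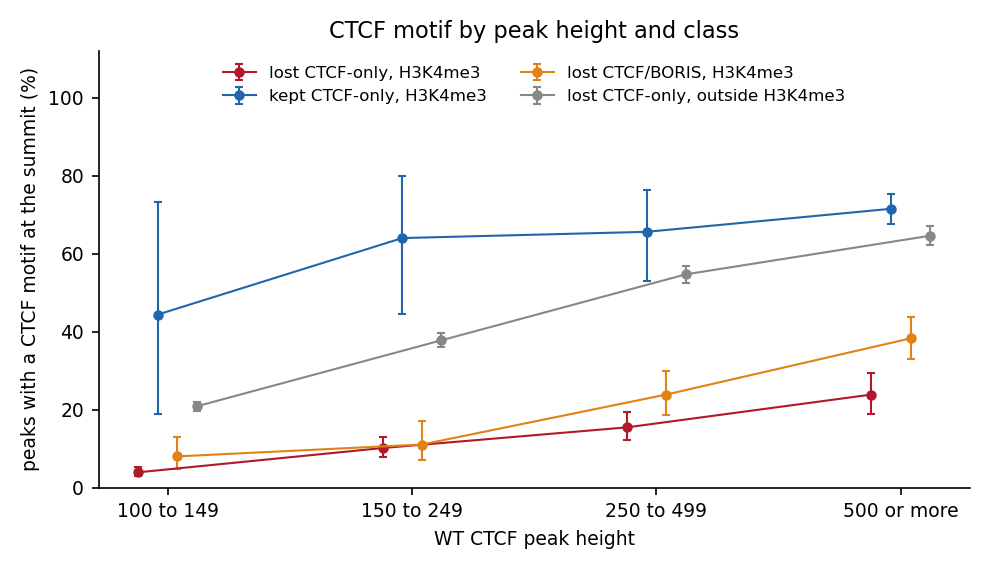
Share of peaks with a CTCF motif within 50 bp of the summit in 4 steps of WT height, by class, with 95% Wilson intervals. The share rises with height in every class, from 3.98 to 23.9% at members and from 20.9 to 64.6% at lost CTCF-only peaks outside H3K4me3 chromatin.

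Most members lay at the starts of genes. The summit was within 1 kb of an annotated start at 1840 members (80.7%, 79.0 to 82.2), against 37.4% of kept CTCF-only peaks in H3K4me3 chromatin. The difference was 43.2 points (39.0 to 47.3, Fisher's exact test, adjusted p = 7.32e-92, higher on 19 of 19 chromosomes). Lost CTCF/BORIS peaks in H3K4me3 chromatin were at starts more often still, 90.4% (difference -9.78 points, -12.2 to -7.13, Fisher's exact test, adjusted p = 9.28e-12). Of all WT CTCF peaks, 20.0% were.

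The summits sat close to the starts. For 1248 members (54.7%) the distance was at most 250 bp, and the median over all members was 206 bp. At promoters, 56.6% of the members' summits (54.3 to 58.8) lay downstream of the start, against 32.8% (27.1 to 39.0) at kept CTCF-only peaks in H3K4me3 chromatin and 50.8% (47.3 to 54.2) at lost CTCF/BORIS peaks. Starts on both strands were within 1 kb of the summit at 369 promoter members (20.1%). By annotation of the summit itself, 667 members lay between genes, 646 in introns, 483 in untranslated regions, 401 in coding exons and 84 in exons of non-coding transcripts.

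**Figure D4:**
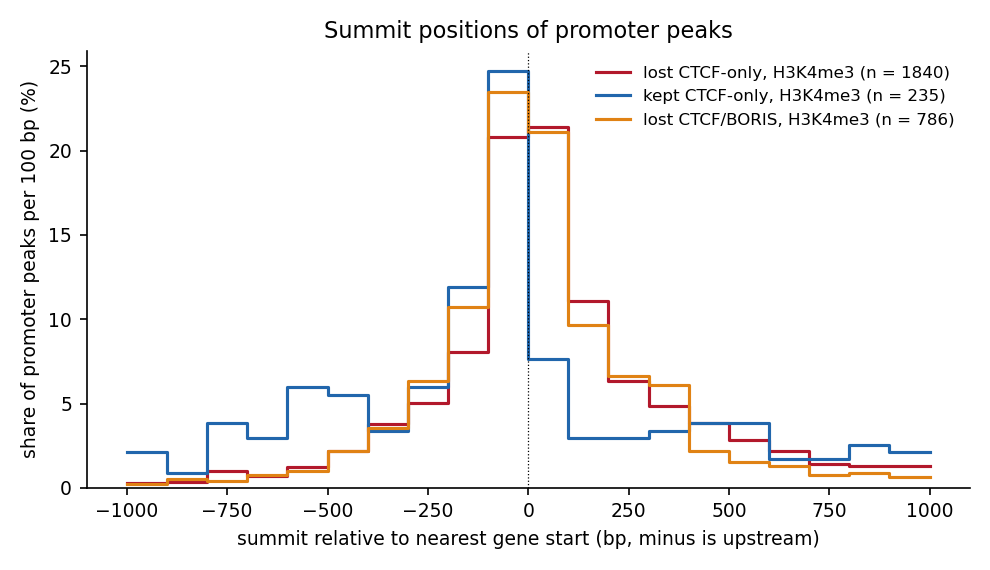
Position of the summit relative to the nearest gene start, in 100 bp steps, for peaks within 1 kb of a start, as the share of each class. Members are spread about the start, with 20.8% in the 100 bp before it and 21.4% in the 100 bp after it, while kept CTCF-only peaks lie more often upstream.

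The DNA under the members was that of CpG-rich promoters. In the 300 bp around the summit the median GC content was 63.3% and the median observed/expected CpG ratio 0.749, against 51.3% and 0.407 at kept CTCF-only peaks in H3K4me3 chromatin. A window counted as CpG-rich at a GC content of at least 50% and a ratio of at least 0.6. This held for 1593 members (69.8%, 67.9 to 71.7), for 21.2% of those kept peaks (difference 48.7 points, 44.8 to 52.2, Fisher's exact test, adjusted p = 9.07e-108) and for 88.1% of lost CTCF/BORIS peaks in the mark (difference -18.3 points, -21.1 to -15.3, adjusted p = 1.60e-28).

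Members with and without a motif differed in this as well, as a description. A CpG-rich window was found at 46.2% of the 221 members with a motif (39.7 to 52.7) and at 72.4% of the 2060 without one (70.4 to 74.3), and promoter position at 62.9 and 82.6%. Short promoter words were counted within 50 bp of the summit on both strands. The GC box GGGCGG was in 26.5% of members, 8.92% of kept CTCF-only peaks in the mark and 18.7% of annotated starts. The ETS word CCGGAAG was in 5.92, 1.91 and 4.60%, and the CCAAT word in 7.50, 7.64 and 12.1%. The NRF1 word GCATGCGC was in 1.10% of members, the YY1 word AAGATGGC in 1.23% and the CRE word TGACGTCA in 0.351%.

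H3K4me3 stayed listed at most members in CM testis. A CM H3K4me3 peak overlapped 2031 members (89.0%, 87.7 to 90.3), against 64.0% of kept CTCF-only peaks in the mark (95% interval of the difference 21.1 to 29.0 points, Fisher's exact test, adjusted p = 7.63e-44) and 95.1% of lost CTCF/BORIS peaks (difference -6.01 points, -7.85 to -3.96, adjusted p = 7.56e-08). Of all WT H3K4me3 peaks, 51.4% overlapped a CM H3K4me3 peak. That share was 94.7% for WT H3K4me3 peaks that span a gene start and 33.2% for those that span none. Promoter members had 95.4% (94.4 to 96.3) and members away from promoters 62.4% (57.7 to 66.8), so the promoter members were near the share of all H3K4me3 peaks at starts. The difference from kept peaks was 6.07 points among promoter peaks and 13.5 points away from promoters. With the upper 50% of H3K4me3 scores it was 12.8 points.

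The H3K4me3 peaks that carry members were broader and scored higher than the list as a whole, as a description. The 2185 WT H3K4me3 peaks with a member had a median width of 1340 bp and a median MACS score of 304, against 728 bp and 97.5 over all 34347. Most held a single member, and 94 held more than 1, while 158 held another CTCF peak too. A kept WT CTCF peak was a median of 18047 bp away, and 549 members (24.1%) had one within 5 kb. Counted per CTCF peak, the H3K4me3 peak at members had a median width of 1361 bp and a median score of 310. At kept CTCF-only peaks in the mark these medians were 901 bp and 127.

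Pol2 was listed at most members in both genotypes. A WT Pol2 peak overlapped 1490 members (65.3%, 63.3 to 67.2) and a CM Pol2 peak 1727 (75.7%, 73.9 to 77.4). At kept CTCF-only peaks in the mark the shares were 45.4% (difference 19.9 points, 15.6 to 24.2, Fisher's exact test, adjusted p = 3.73e-19) and 50.5% (difference 25.2 points, 20.9 to 29.5, adjusted p = 2.75e-32). Lost CTCF/BORIS peaks in the mark had 73.1 and 83.1% (differences -7.75 points, -11.2 to -4.15, and -7.37 points, -10.3 to -4.23, Fisher's exact test, adjusted p = 3.02e-05 and 6.86e-06). The difference from kept peaks was smaller among peaks of like position. Among promoter peaks it was 10.5 points for WT Pol2 and 11.4 for CM Pol2, and away from promoters 5.56 and 7.66 points, of which the WT value did not pass (Fisher's exact test, unadjusted p = 0.103 and 0.0293).

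By genotype, 1440 members had Pol2 in both lists, 287 in the CM list alone, 50 in the WT list alone and 504 in neither. The CM list alone was the commoner of the unequal states in the other classes as well, with 63 against 31 kept CTCF-only peaks in the mark and 100 against 13 lost CTCF/BORIS peaks in it. The CM Pol2 list is the longer one, and its part in these counts was not tested.

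The edge of the rule was narrow for few members. The smallest overlap with H3K4me3 was 2 bp, at a member of height 113 at chr17:45873757-45874032, and 35 members overlapped by under 50 bp, while 1589 lay wholly inside the mark. Just outside it, a lost peak of height 1816 at chr4:148078665-148079202 touched an H3K4me3 peak without sharing a base. The member nearest to a CM CTCF peak was 52 bp away (chr7:123845448-123845779, height 308), and 29 members had one within 200 bp. The kept peak with the least overlap shared 1 bp with a CM CTCF peak (chr7:19764258-19765210, height 449). On the BORIS side, a member at chr7:31741981-31742576 (height 110) was 18 bp from a BORIS peak, and the excluded peak with the least overlap shared 3 bp with one (chr8:18594799-18595054, height 174, 195 bp from a start of Mcph1).

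The tallest members were mixed in kind. The tallest, at chr6:81936829-81937428 (height 2641), lay between genes, 21205 bp from the nearest start, that of Mrpl19, and had no motif and neither CM H3K4me3 nor Pol2. The next, at chr17:26275290-26276229 (height 2577), lay in an untranslated region 9 bp from a start of Axin1, a scaffold of the Wnt pathway, had no motif (GC content 71.3%), and kept H3K4me3 and Pol2. The peak in Cckbr, a gastrin receptor gene, was at chr7:112582407-112583800 (height 2393), and it had no CM H3K4me3 peak and no Pol2 peak in either genotype. The peak in Ppp1r13l at chr7:19955069-19956105 (height 2197) had a CM H3K4me3 peak and no Pol2 peak.

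The other 6 of the 10 tallest had heights of 1788 to 1979 and no motif, and 5 of them lay within 1 kb of a start. Their genes were Usp22, a deubiquitinase of the SAGA complex, the cell cycle kinase gene Cdk6, the mitochondrial carrier gene Sfxn3, Mfsd6l, and Pcnt, which encodes the centrosome protein pericentrin. The remaining one lay in an intron of Gm13021. All 10 were at least 5462 bp from the nearest CM CTCF peak.

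RNA was then compared at the genes that start at members. Within 1 kb of a member summit 2131 annotated genes start, of which 1938 are protein-coding. Of these, 1963 were matched by symbol to the 23284 genes of the count tables, and 1912 passed the filter on low counts in whole testis, 1860 in round spermatids and 1847 in spermatocytes. Whole testis libraries held 10437683 to 42055813 counts, those of spermatocytes 53337530 to 88946702 and those of round spermatids 47740650 to 98545423.

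The labels held in whole testis and less so in the purified cells. Ctcf was at 39.9 to 47.0 CPM (TMM-scaled) in WT and 24.0 to 27.4 in CM whole testis, and Rltpr, a gene beside Ctcf, at 1.10 to 1.71 and 40.9 to 80.6. In round spermatids Ctcf was at 28.9, 30.7 and 49.6 CPM in WT and at 39.9, 46.9 and 177 in the libraries labelled CM, and in spermatocytes at 32.2 and 34.0 against 31.9, 32.9 and 83.0, so Ctcf was not lower there. Rltpr was high in all of them, at 29.5 to 70.2 CPM against 0.591 to 1.61. Ctcfl was at 0.531 to 0.688 CPM in WT and 0.122 to 0.201 in CM whole testis, and in round spermatids at 2.90 to 5.02 and 1.12 to 2.63.

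Several lists of cell type markers moved with genotype in whole testis. Over 12 round spermatid markers the summed level was 18813 to 26184 CPM in WT and 5265 to 14735 in CM, with 5 lower. Over 8 Leydig cell markers it was 386 to 676 and 1925 to 3857 CPM, with 6 higher, and over 8 macrophage markers 71.3 to 156 and 210 to 549 CPM, with 8 higher. Of 10 Sertoli cell markers 4 were higher (median log2 fold change 1.15), and of 21 tested spermatogonial genes 5 were (0.39). Other lists had few calls. Of 12 spermatocyte markers 0 were called in either direction (median log2 fold change -0.11). Of 5 peritubular myoid markers 1 was higher, with a median log2 fold change of 0.71. Their summed level was 11.5 to 16.4 CPM in WT and 15.7 to 36.6 in CM. Of 5 endothelial markers 1 was higher and 1 lower (median 0.38). No gene of the Leydig, Sertoli, macrophage, peritubular myoid or endothelial lists started at a member. In bulk RNA fewer cells of a type and less RNA per cell cannot be told apart, and the part of cell composition in the results at member genes was not tested.

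In CM whole testis 225 member genes were higher than in WT and 78 lower. A gene was called by edgeR's quasi-likelihood test at a Benjamini-Hochberg adjusted p under 0.05 and a fold change over 2. The called shares were 11.8% higher (10.4 to 13.3) and 4.08% lower (3.28 to 5.06), against 15.3% and 5.90% of the 16378 genes tested. Among the 10019 tested genes with H3K4me3 at a start, 10.0% were higher and 5.74% lower. The member genes' shares were thus below those of all genes in both directions, and below those of genes with the mark for the lower genes. Their median log2 fold change was -0.04 (quartiles -0.48 and 0.59), against 0.00 over all genes and -0.10 over genes with the mark.

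These calls depend on single libraries. Without CM replicate 3, WT replicate 2 or WT replicate 3 in turn, 0 member genes were called in either direction by edgeR, and without WT replicate 1 there were 118 higher (6.16%) and 40 lower (2.09%), against 8.13% and 2.72% of all genes. All 225 and 78 genes kept their sign in each of those fits. For the fits with 0 calls the shares of all genes are not given here. With the replicate number as a block, 13.8% were higher and 6.33% lower, against 18.3% and 8.66% of all genes. The DESeq2 Wald test called 240 (12.4%) and 104 (5.39%), against 16.0% and 7.51% of all genes. Every CM library lay above every WT library for 453 member genes (23.7%, against 26.1% of all genes tested) and below for 440 (23.0%, against 21.5%).

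Of the 10 member genes that rose most clearly by adjusted p, Ass1, Grn and Acadl had the largest fold changes. Ass1, which encodes a urea cycle enzyme that makes arginine precursors, was at 4.53, 4.90 and 7.23 CPM in WT and 30.8, 48.0 and 78.3 in CM (log2 fold change 3.20, SE 0.38, edgeR adjusted p = 0.0151). Grn, which encodes the secreted protein progranulin, was at 5.24, 6.86 and 8.55 CPM in WT and 27.9, 63.3 and 79.4 in CM (log2 fold change 3.00, SE 0.39). Acadl, which encodes an enzyme of fatty acid oxidation, was at 3.53 to 5.60 CPM in WT and 16.3 to 61.5 in CM. In each of these genes every CM library lay above every WT library.

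The other 7 were the protease genes Pcsk5, Lnpep and Adam12, the lipase gene Lipg, Adap2, the ribosomal protein gene Rps4x and the actin-binding calponin gene Cnn3. Over the 10, log2 fold changes ran from 1.80 to 3.20, all at an edgeR adjusted p of 0.0151. In BORIS KO whole testis Ass1 was at a mean of 13.0 CPM and in CTCF HET at 6.63. Several of these genes were nearly absent from the purified cells of both genotypes. In round spermatids Ass1 was at 0.0191 to 0.189 CPM in WT and 0.0258 to 0.260 in the libraries labelled CM, Adap2 had no counts in either, and Rps4x was at a mean of 0 and 0.169. Grn was at a mean of 0.0893 and 0.0384 in spermatocytes, and at 0.471 to 0.862 and 0.582 to 9.06 CPM in round spermatids. Others were present in spermatocytes. There Lnpep was at 5.56 to 5.81 CPM in WT and 9.39 to 10.2 in the libraries labelled CM, and Cnn3 at 0.792 to 0.965 and 1.69 to 3.35. Lipg was lower there, at 8.58 to 8.77 and 3.92 to 6.10, and none of these passed by edgeR. The Leydig cell and macrophage markers rose in the CM whole testis libraries, and their part in the whole testis rises was not tested.

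The genes that fell most clearly lay mostly at members with Pol2 in both genotypes, as did 1381 of all 1912 tested member genes. 4933408J17Rik was at 4.95 to 5.57 CPM in WT and 0.426 to 1.04 in CM (log2 fold change -2.92, SE 0.41, edgeR adjusted p = 0.0151). Its member (height 110) lies 223 bp downstream of the start and 70 bp from that of Snrpf, a spliceosome protein gene. Erp29, which encodes a chaperone of the endoplasmic reticulum, was at a mean of 183 CPM (SD 72.1, n = 3) in WT and 53.3 (SD 5.46) in CM, with no overlap of the libraries (log2 fold change -1.80, SE 0.29). In BORIS KO it was at a mean of 61.5 CPM and in CTCF HET at 200.

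Gsg1, a germ cell gene, was at 4127 to 4426 CPM in WT and 990 to 1706 in CM (log2 fold change -1.64, SE 0.29, edgeR adjusted p = 0.0157). Gpi1, which encodes a glycolytic isomerase, was at 751 to 895 CPM in WT and 271 to 369 in CM. Hipk4, a kinase gene of spermatid head shaping, was at 160 to 175 and 56.9 to 82.5 CPM. The other 5 were Wbscr25, Nfkbib, which encodes an inhibitor of NF-kB, Trim46, 4931408A02Rik and Herpud2. In all 10 the CM libraries lay below the WT libraries.

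**Figure D5:**
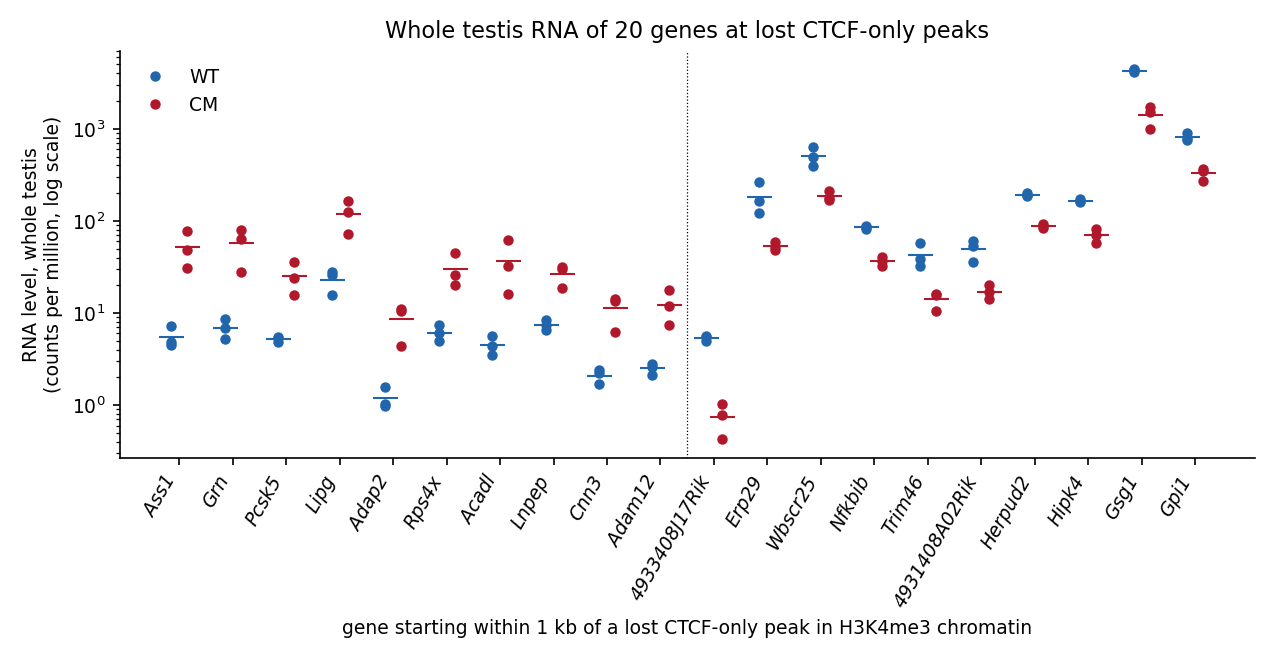
RNA level in whole testis, in CPM on a log axis, of the 10 genes at members with the smallest adjusted p that were higher in CM (left of the dotted line) and the 10 that were lower (right). Each point is 1 library (3 WT, 3 CM) and the bar is the mean, and in all 20 genes the WT and CM points do not overlap.

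The state of the chromatin at these 20 starts differed between the directions, as a description. Over all 1912 tested member genes, 1381 had Pol2 in both lists, 252 in the CM list alone, 25 in the WT list alone and 254 in neither. Of the 10 that were higher, 6 had no Pol2 peak in either genotype, 3 had one in CM alone (Grn, Lipg and Cnn3) and 1 in both (Lnpep), and their WT H3K4me3 scores had a median of 72.5 (52.9 to 804). Of the 10 that were lower, 9 had Pol2 in both genotypes and 1, Trim46, in neither, and the H3K4me3 scores had a median of 729 (151 to 2844). A CTCF motif was found at the member of 1 of the first 10 (Grn) and of 2 of the second 10 (Gsg1 and Gpi1).

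The called shares are given next by the Pol2 lists at the member, as a description. Of 252 tested genes whose member had Pol2 in the CM list alone, 84 were higher (33.3%) and 2 lower (Ccdc91 and Slc2a5), with a median log2 fold change of 0.82. Of 1381 with Pol2 in both lists, 83 were higher (6.01%) and 64 lower (4.63%), with a median of -0.17. Of 25 with Pol2 in the WT list alone, 2 were higher (Il11ra1 and Sfxn2) and 3 lower (Afap1, Fnbp1l and Tspan6). Of 254 with Pol2 in neither, 56 were higher (22.0%) and 9 lower.

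Genes in H3K4me3 chromatin without a member are given beside these. With Pol2 judged within 250 bp of any start, 35.4% of 226 member genes with Pol2 in the CM list alone were higher, and 28.0% of 929 other genes with H3K4me3 at a start were. The corresponding shares with Pol2 in both lists were 6.32% of 1441 and 5.05% of 6117, and with Pol2 in neither list 24.1% of 220 and 22.9% of 1020. With Pol2 in the WT list alone, 2 of 25 and 29 of 136 (21.3%) were lower, and with Pol2 in both lists 4.72 and 6.54%. The Leydig cell and macrophage markers that rose in the same CM libraries are given above, and the part of cell composition in these shares was not tested. By CTCF motif, the 145 tested genes with a motif had 13.8% higher and 8.28% lower, and the 1767 without one 11.6% higher and 3.74% lower, with a median log2 fold change of -0.04 in each. These shares were not tested against each other.

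At the 10 tallest members, Usp22 was at 13.1, 18.5 and 32.9 CPM in WT and 38.8, 57.7 and 152 in CM (log2 fold change 1.90, SE 0.51, edgeR adjusted p = 0.0291). Sfxn3 was at 4.73 to 9.32 and 13.0 to 38.2 CPM (log2 fold change 1.80, SE 0.41, edgeR adjusted p = 0.0195). Morc1, needed for transposon silencing in male germ cells and taken for its motif, was at 3.98 to 5.07 CPM in WT and 1.48 to 2.75 in CM (log2 fold change -1.24, SE 0.36, edgeR adjusted p = 0.0382). In these 3 genes the WT and CM libraries do not overlap. Axin1, Cdk6, Ppp1r13l, Mfsd6l and Pcnt had log2 fold changes of 0.32, -0.39, -0.39, -0.45 and -0.54 and did not pass (edgeR adjusted p 0.143 to 0.348). Of the genes at members taller than that of Morc1, Prkag2, Mthfd2, Gpr135, Grhl1 and Cd2bp2 (heights 1601 to 1738) did not pass either, and Fam199x (height 1634) was higher (log2 fold change 1.32, edgeR adjusted p = 0.0394).

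Members lay at housekeeping genes at about the share of all genes with the mark. A member lay at 17 of 80 cytosolic ribosomal protein genes (21.2%), 10 of 49 proteasome genes (20.4%), 15 of 76 mitochondrial ribosomal protein genes (19.7%), 10 of 54 DNA repair genes (18.5%) and 10 of 63 splicing factor and hnRNP genes (15.9%). The share was 18.2% of all 10220 listed genes with H3K4me3 at a start and 8.43% of all listed genes. It was 54 of 367 Zfp genes (14.7%), 11 of 66 histone and DNA methylation enzyme genes (16.7%) and 10 of 87 Ube and Usp genes (11.5%).

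In most of these lists few genes passed in CM whole testis, with a member or over the whole list. Of all tested, 3 of 76 cytosolic ribosomal, 2 of 76 mitochondrial ribosomal and 1 of 61 splicing genes were higher, with 0 lower. There were 4 higher and 1 lower of 47 proteasome genes, 2 and 1 of 53 DNA repair genes, and 3 and 6 of 84 Ube and Usp genes. Over the whole lists, 47 of 344 tested Zfp genes were higher and 7 lower, as were 13 and 0 of 66 enzyme genes of histone or DNA methylation. Of 53 tested Zfp genes with a member, 7 were higher and 2 lower (Zfp13 and Zfp217). With a member, 1 of 16 tested cytosolic ribosomal protein genes was higher (Rps4x), 1 of 11 enzyme genes of histone or DNA methylation (Prmt1) and 1 of 9 Ube or Usp genes (Usp22). Of the proteasome, mitochondrial ribosomal, DNA repair and splicing genes with a member, 0 passed in either direction by edgeR. The median log2 fold change of the 15 mitochondrial ribosomal protein genes with a member was 0.52, against 0.07 over the whole list.

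Among germ cell lists, a member lay at 7 of 67 meiosis genes (10.4%), 5 of 32 piRNA and germ granule genes (15.6%), 7 of 86 spermatid genes (8.14%), 4 of 26 spermatogonial genes (15.4%) and 2 of 28 cohesin and loop genes (7.14%). Atm, a kinase of the DNA damage response, was at 7.82 to 10.4 CPM in WT and 15.6 to 21.2 in CM (log2 fold change 1.03, SE 0.26, edgeR adjusted p = 0.0239). It was the only one of the 7 meiosis genes with a member to pass, and over the whole list 2 of 66 tested genes were higher and 0 lower. The median log2 fold change of the 7 was -0.15 (-0.86 for Mus81 and -0.57 for Rad51c, edgeR adjusted p = 0.0533 and 0.164). Zbtb16, a regulator of spermatogonial stem cells, was at 1.81 to 3.11 and 6.24 to 26.6 CPM (log2 fold change 2.57, SE 0.50, edgeR adjusted p = 0.0165). Its member has a summit 10 bp upstream of the start.

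H1fnt, a linker histone gene of spermatids, was at 944 to 1167 CPM in WT and 170 to 539 in CM (log2 fold change -1.45, SE 0.42, edgeR adjusted p = 0.0367). Spata6, needed for the sperm neck, was at 1487 to 1527 and 491 to 760 CPM (log2 fold change -1.23, SE 0.27, edgeR adjusted p = 0.0184). These 2 were the only ones of the 7 spermatid genes with a member that passed, and over the whole spermatid list 35 of 86 were lower. None of the 5 piRNA and germ granule genes with a member (Mybl1, Rnf17, Tdrd1, Tdrd3, Tdrkh) passed. Over that whole list 1 of 30 tested genes was higher and 0 lower.

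In the libraries of purified cells labelled CM few calls were made. In round spermatids 0 member genes were called in either direction by edgeR, against 0.00654% of all 15298 genes higher and 0% lower. At an unadjusted p under 0.05 there were 363 member genes (19.5%, against 20.5% of all genes), and DESeq2 called 142 higher and 21 lower, against 7.46% and 3.12% of the genes it tested. Without CM replicate 1, whose Ctcf level was 177 CPM, edgeR called 42 higher (2.25%) and 26 lower (1.39%), against 2.40% and 2.73% of all genes. In spermatocytes edgeR called 6 member genes higher (Dmrt1, Itgb1, Kat2b, Obfc2a, Suclg2 and Tmem123) and 2 lower (Dhrs4 and Pdk2), against 0.339% and 0.0949% of 14747 genes, and DESeq2 called 75 and 39, against 7.12% and 2.10%. Leaving out single spermatocyte libraries gave 0 to 102 higher and 0 to 137 lower, with the largest counts without CM replicate 1 (5.57% and 7.48%, against 8.61% and 6.50% of all genes) and 0 for each of the others.

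Cell type markers differed in the round spermatid libraries too. Round spermatid markers summed to 2322 to 2439 CPM in WT and 948 to 1347 in the libraries labelled CM (median log2 fold change -1.05), and spermatogonial genes to 65.1 to 67.8 CPM in WT and up to 545 in the libraries labelled CM, all above WT (1.84), with 0 called by edgeR. In the spermatocyte libraries round spermatid markers summed to 55.9 to 56.3 CPM in WT and 56.7 to 210 in those labelled CM (1.57), with 0 called by edgeR. The genes called in whole testis are described in the purified cells by group means on the log2(CPM + 1) scale. Of the 225 higher genes, 194 had a higher mean in round spermatids labelled CM (median difference 0.62) and 140 in spermatocytes (0.09). Of the 78 lower genes, 7 had a higher mean in round spermatids (median difference -0.53) and 41 in spermatocytes (0.06). Over all member genes the median differences were 0.04 and -0.05, and the part of cell composition was not tested.

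Itgb1, Suclg2 and Dhrs4 passed in the same direction in whole testis and spermatocytes. Dhrs4 encodes a carbonyl reductase, and its member (height 729) holds a CTCF motif and has its summit 44 bp upstream of the start, at chr14:56097381-56097786. A WT BORIS peak lies 245 bp from this member, and 196 members (8.59%) had one within 1 kb. Dhrs4 was at 25.7, 29.5 and 38.3 CPM in WT and 6.55, 11.3 and 14.4 in CM whole testis (log2 fold change -1.57, SE 0.35, edgeR adjusted p = 0.0194). In spermatocytes it was at 37.6 and 37.7 CPM against 9.59, 11.3 and 11.9 (log2 fold change -1.74, edgeR adjusted p = 0.0205). In round spermatids it was at 60.5 to 64.3 and 16.4 to 29.3 CPM (log2 fold change -1.31, edgeR adjusted p = 0.107). The libraries labelled CM lay below the WT libraries in all 3 tissues, and the CTCF HET mean lay below the BORIS KO mean in each. These means were 14.1 and 26.2 CPM in whole testis, 34.7 and 55.8 in round spermatids and 19.6 and 33.3 in spermatocytes.

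Itgb1, an integrin subunit gene, was at 15.4 to 47.6 and 55.3 to 149 CPM in whole testis (log2 fold change 1.72, SE 0.47, edgeR adjusted p = 0.0306) and at 1.21 to 1.38 and 4.32 to 5.61 CPM in spermatocytes (log2 fold change 1.95, edgeR adjusted p = 0.0491). In round spermatids it was at 7.08 to 8.89 CPM in WT and at 13.8, 25.6 and 153 in the libraries labelled CM. Suclg2, which encodes a succinyl-CoA ligase subunit, was at a mean of 11.9 CPM (SD 6.50, n = 3) in WT and 32.8 (SD 15.4) in CM whole testis, where the groups overlap (log2 fold change 1.43, SE 0.44, edgeR adjusted p = 0.0427). In spermatocytes it was at 0.724 to 0.767 and 3.11 to 4.20 CPM (log2 fold change 2.33, edgeR adjusted p = 0.0452).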

How the data were processed

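The members and the gene lists were chosen with earlier results of these data known. The authors aligned ChIP-seq reads to mm9 with Bowtie2 and called peaks with MACS, and the deposited CTCF and BORIS lists give a signal (peak height) and summit per peak from PeakSplitter, while the Pol2 and H3K4me3 lists give a MACS score. How replicates were combined and how heights were normalised are not given in the sources used here. The authors deposited raw counts per gene symbol, which enter the tests without change, and the use of strand is not given.

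Peaks overlapped at 1 bp. Summits, exons and starts were placed on GENCODE M1 (mm9), and sequence was read from mm9. A position weight matrix of 19 positions was learned by expectation maximisation from the 5000 tallest of every other kept CTCF-only peak outside H3K4me3 chromatin, with a score that 1% of their own windows 500 bp away reach. Classes were compared by two-sided Fisher's exact tests with Wilson and Newcombe 95% intervals, which cover counting error only. Counts were filtered with filterByExpr, scaled by TMM and tested with edgeR 4.0.16 (quasi-likelihood, robust, Benjamini-Hochberg over all genes tested), with DESeq2 1.42.0 as an alternative, and the code was tested on simulated data. Standard errors are the log2 fold change divided by the square root of F. CPM values are TMM-scaled.

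Named genes are the 10 called most clearly (by adjusted p, then p) in CM whole testis in either direction, those called alike in whole testis and a purified cell type, called genes of 5 germ cell lists, and Ctcf, Ctcfl and Rltpr. The genes at the tallest members, with Morc1, and those named for counts of 6 or fewer were added after their values were seen. In whole testis residuals of all 18 same-numbered pairs correlated above 0.1 (0.121 to 0.632), as they did in 4 of 18 pairs in round spermatids and 1 of 15 in spermatocytes. Replicate 1 was also the deepest whole testis library of every genotype, and the part of depth in these correlations was not tested. The calls leave the replicate number out unless the block is named. Nothing ties libraries to litters or days, so p-values measure the spread between pooled preparations. Alternatives changed the overlap, heights, H3K4me3 scores, windows, motif score, scaling, filter, test, samples in the fit, thresholds, pairing and single libraries.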

Additional observations from a re-analysis of the deposited data

Results flagged for a closer look

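The named genes Adam12, Lipg and Hipk4 differed in sign between tissues, in that every library labelled CM lay above every WT library in one and below in another. The differences between tissues were not tested. Adam12 had a log2 fold change of 2.25 in whole testis and -0.99 in round spermatids, where its levels were under 1 CPM. Lipg had 2.35 in whole testis and -0.79 in spermatocytes. Hipk4 had -1.28 in whole testis and -0.71 in round spermatids, and 1.77 in spermatocytes, where its levels were 0.978 to 5.76 CPM. In the spermatocyte libraries round spermatid markers summed to 55.9 to 56.3 CPM in WT and 56.7 to 210 in those labelled CM, and their part was not tested. In whole testis the edgeR adjusted p was 0.0151 for Adam12 and Lipg and 0.0156 for Hipk4, and none of the differences in the purified cells passed by edgeR. DESeq2 gave an adjusted p of 0.00353 for Hipk4 and 0.0229 for Lipg in spermatocytes.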

How the results depend on the processing

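The 6 comparisons of peak shares with kept CTCF-only peaks in H3K4me3 chromatin kept their direction and passed under every alternative run, except WT Pol2 away from promoters. The differences ran from 33.7 to 43.6 points for promoter position, 5.56 to 21.4 for WT Pol2, 7.66 to 26.4 for CM Pol2, 6.07 to 25.3 for CM H3K4me3, -61.3 to -16.1 for the CTCF motif (-16.1 at the stricter score, which 1.40% of members and 17.5% of kept peaks reach) and 22.3 to 52.2 for CpG-rich windows. The splits by promoter position and the looser motif score were chosen after seeing the data. The looser score, which 5% of the flank windows reach, was reached by 31.3% of members and 84.6% of kept peaks. Within 100 bp of the summit at the main score the shares were 14.0 and 75.2%. The upper 50% of heights in each list left 658 members, and the other 3 definitions gave 1876 to 2281.

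The called share of member genes moved more. Leaving out each library gave 0 to 15.8% higher and 0 to 4.89% lower in whole testis, 0 to 2.25% and 0 to 1.39% in round spermatids, and 0 to 5.57% and 0 to 7.48% in spermatocytes. In edgeR without the block, an adjusted p under 0.001 gave 0 in every tissue and direction, while with the block or DESeq2 single genes passed it in whole testis (Ass1 at 6.32e-05 and 1.31e-12). Without a fold threshold 7.27% were lower in whole testis and 0.271% in spermatocytes, and with the replicate block 6.33% and 0.0541%. DESeq2 gave 7.86% higher and 1.16% lower in round spermatids and 4.33% and 2.25% in spermatocytes. All genotypes in one fit gave 8.59% and 1.79% in round spermatids and 1.87% in each direction in spermatocytes. The cause was not tested. Shares of all genes are given above for some settings only, and there they moved the same way as those of member genes. In the other settings a change at member genes cannot be told from one over all genes. These swings are therefore not read as a trait of member genes. The replicate block moved no other count by over 1.5 times. The lack of replicate lists and of ChIP depth limits what absence from the CM list means, and 47.3% of members had heights under 150 in a list that begins at 100.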
